A study of Homo sapiens with 6 samples.

Results

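Of the 61806 genes in the deposited table of U87-MG RNA sequencing, 60 genes of cytokine and chemokine signalling and of the NF-kB pathway are described here. They were chosen by gene symbol from a list of cytokines, chemokines, their receptors, NF-kB subunits, inhibitors and known targets, which was drawn up with earlier results of these data known. In the libraries, 46 of the 60 had a mean of at least 0.5 FPKM (fragments per kilobase of exonic length, scaled to the total counted reads of the library) and were tested, among 15870 genes tested in all. The other 14 were below that level and are described by their counts.

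U87-MG is an established human glioblastoma cell line. The 6 libraries of total RNA were made from this line alone, 3 labelled negative control (NC, genotype label wildtype) and 3 labelled GRIK1 siRNA (genotype label GRIK1 knockdown), to look for genes downstream of GRIK1, a kainate-type glutamate receptor subunit. The series' design text speaks of shRNA and the titles of siRNA, and no label gives a treatment time or says whether the numbers 1 to 3 of the GRIK1 siRNA libraries are replicates or siRNA sequences. No label says that libraries came from separate cultures, so the p-values measure only the spread between these libraries, which may be technical. The libraries held 11099909 to 14006968 counted reads.

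NF-kB is a family of transcription factors that are kept in the cytoplasm by IkB proteins. Receptors for interleukin 1 and TNF activate the IKK kinase complex, which phosphorylates the IkB proteins and leads to their degradation, and the freed NF-kB dimers then switch on genes for cytokines, chemokines, adhesion molecules and the pathway's own inhibitors. In glioma, interleukin 6 and CXCL8 are known as products of the tumour cells themselves, and cytokines of the interleukin 6 family signal through the receptor subunit encoded by IL6ST to STAT3.

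GRIK1 itself (ENSG00000171189, chromosome 21 from 29536933 to 29940033, GRCh38) had 18, 9 and 8 reads in NC libraries 1, 2 and 3, and the 3 labelled knockdown libraries held 15, 20 and 20 reads. On log2(FPKM + 1) the labelled knockdown minus NC was 0.12 (two-sided exact permutation test, p = 0.4, and 0.1 is the smallest p that 3 libraries against 3 can give). The targeted transcript was thus not measured lower in the libraries labelled GRIK1 siRNA, and directions below refer to the labels only. Of 8 glioma line markers, VIM and CD44 were abundant, with means over the 6 libraries of 1001 and 61.3 FPKM. CHI3L1 had 2.98, OLIG2 0.585 and NES 0.497 FPKM, and GFAP, S100B and SOX2 were at or near 0. Summed FPKM over these 8 markers was 878 to 1152 in NC and 1069 to 1099 in the libraries labelled GRIK1 siRNA, nearly all of it from VIM and CD44. Over 8 myeloid markers the sums were 1.22 to 1.47 and 1.25 to 1.75 FPKM, with AIF1, TYROBP and CX3CR1 at 0 throughout. Endothelial markers summed to 1.63 to 2.41 and 1.69 to 2.21 FPKM, and lymphocyte markers to 1.15 to 1.43 and 0.74 to 1.18 FPKM, with CD3D, CD3E and MS4A1 at 0. In bulk RNA, fewer cells of a kind and less RNA per cell cannot be told apart.

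NC library 3 stood apart from the other 5 libraries. The first principal component held 59.5% of the variance and separated it from the rest. The common dispersion of the counts, a measure of spread between libraries of a group, fell from 0.0391 for the 6 libraries to 0.00298 once NC library 3 was left out. Across all tested genes, NC library 3 lay outside the range of the other 5 libraries in 71.4%, and among the tested cytokine and NF-kB genes in 31 of 46 (67.4%, 15 above and 16 below, against 35.5% above and 35.8% below over all genes). The largest of these departures, as the log2 ratio of NC library 3 to the mean of NC libraries 1 and 2, were −1.13 for CSF1 and 1.09 for CXCL8. The fold changes named for tested genes are therefore given with all 6 libraries and again without this library. Its part in the results was not otherwise tested.

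NF-kB dimers bind short DNA elements near gene starts, and several of the listed genes carry such letters. The RefSeq sequences of GRCh38.p14 hold, for 48 of the 60 genes, the 300 bases from 250 before to 50 after the gene start. They were searched on both strands for GGG followed after any 3 bases by TTCC, and for GGAATTTCC, which overlap each other in many windows. One or the other was found at 19 of 48 listed genes (39.6%), against 2210 of 27305 genes with an entry (8.09%) and 2356 of 34943 distinct windows of that length (6.74%). Known NF-kB targets were listed by choice, so a share above that of all genes was built into the list and is no result of these libraries. Shown here are 30 bases around a match for each of the 7 genes with a match that were lower in either fit below. Of the 12 others with a match that were not called, only some are shown. The bases run 5′ to 3′ on the gene's strand, with the matched letters in capitals.
CXCL1: ctggaactccGGGAATTTCCctggcccggg
CXCL2: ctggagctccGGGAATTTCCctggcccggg
CXCL3: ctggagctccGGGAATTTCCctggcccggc
CXCL8: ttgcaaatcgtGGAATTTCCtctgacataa
CCL20: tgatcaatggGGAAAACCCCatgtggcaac
NFKBIA: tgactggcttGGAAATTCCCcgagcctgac
NFKB1: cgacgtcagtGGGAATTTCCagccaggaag
CXCL5: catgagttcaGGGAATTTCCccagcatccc
IL6: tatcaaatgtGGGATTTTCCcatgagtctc
ICAM1: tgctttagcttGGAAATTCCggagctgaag
NFKBIZ: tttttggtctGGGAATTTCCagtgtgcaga
In the same order, the 30 bases lie in GRCh38.p14 at chr4:73869304-73869333 (CXCL1, plus strand), chr4:74099254-74099283 (CXCL2, minus strand), chr4:74038749-74038778 (CXCL3, minus strand), chr4:73740467-73740496 (CXCL8, plus strand), chr2:227813753-227813782 (CCL20, plus strand), chr14:35404811-35404840 (NFKBIA, minus strand), chr4:102501300-102501329 (NFKB1, plus strand), chr4:73998749-73998778 (CXCL5, minus strand), chr7:22727117-22727146 (IL6, plus strand), chr19:10270923-10270952 (ICAM1, plus strand) and chr3:101827757-101827786 (NFKBIZ, plus strand).
The first 7 belong to genes that were lower in the libraries labelled GRIK1 siRNA in at least one of the 2 fits below, and the last 4 to genes that were called in neither fit. The windows of CXCL1, CXCL2 and CXCL3 have the same matched letters and nearly the same flanks. Of the 13 listed genes that were lower in either fit and have an entry, 7 held a match (53.8%), as did 0 of 6 that were higher and 12 of the other 29 (41.4%). The other 29 include genes below the level for testing, and these shares were not tested. CCL20, NFKBIA and ICAM1 match on the other strand, so their capitals are the reverse complement. Gene starts are those of RefSeq, which for IL6 and CCL20 lie inside the longer genes of the deposited table. A match is a run of letters in a window and not a measured binding site.

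CXCL8 was the most abundant of the 60 genes. Its mean over the 6 libraries was 500.4 FPKM, from group means of 708 ± 279 FPKM in NC and 293 ± 5.62 FPKM in the libraries labelled GRIK1 siRNA (SD, n = 3). Of the summed FPKM of all 60 genes, CXCL8 made up 43.3% in NC and 28.8% in the libraries labelled GRIK1 siRNA. The NC share includes NC library 3, where CXCL8 had 1029 FPKM, beside 535 and 560.1 FPKM in NC libraries 1 and 2. No share was computed without that library. IL1B followed with a mean of 165 FPKM over the 6 libraries. In all, 4 genes exceeded a mean of 100 FPKM over the 6 libraries, the other two being CXCL2 and CSF3. The CXCL2 means were 121 ± 25.6 FPKM in NC and 100.2 ± 1.18 FPKM in the libraries labelled GRIK1 siRNA. For CSF3 they were 134 ± 40.5 FPKM in NC and 72.5 ± 6.54 FPKM in the libraries labelled GRIK1 siRNA, so that CSF3 stood above CXCL2 in the NC mean and below it in the labelled knockdown mean. Another 16 lay between 10 and 100 FPKM, and 26 between 0.5 and 10 FPKM. The most abundant transcripts of the list thus encode neutrophil-attracting chemokines, a granulocyte growth factor and IL1B.

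**Figure D1:**
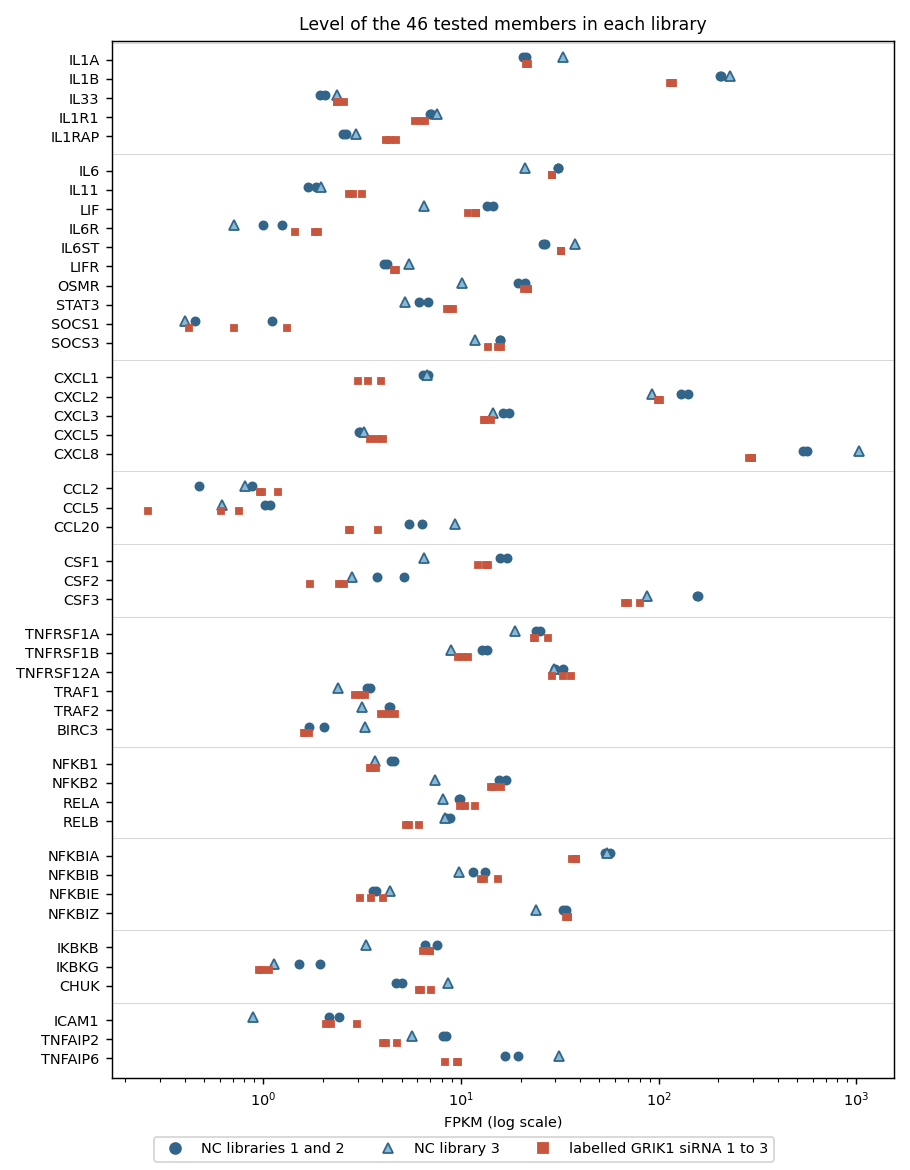
FPKM of the tested genes in each of the 6 libraries, on a log10 axis, with genes grouped by role and points coloured by group and by NC library 3. CXCL8 stands highest, and IL1B, CXCL2 and CSF3 are the other genes with a mean over 100 FPKM.

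With all 6 libraries, 6 of the 46 tested genes differed between the groups at an adjusted p under 0.05 (edgeR quasi-likelihood test, Benjamini-Hochberg adjustment over all 15870 genes), and 6 of 6 were lower in the libraries labelled GRIK1 siRNA. They were IL1B, CXCL1, RELB, NFKBIA, TNFAIP2 and TNFAIP6. This was 13% of the tested members, against 3.09% of all tested genes called in either direction and 1.48% called lower. CXCL1 and TNFAIP6 also passed a log2 fold change of 1 in size, which 1.41% of all tested genes did together with the adjusted p (0.542% lower). At an unadjusted p under 0.05, 18 of 46 members passed, against 25.1% of all tested genes. Without NC library 3, 23 of 46 (50%) were called, 17 lower and 6 higher, against 35.2% of all tested genes (18.3% lower and 16.9% higher). All 6 genes of the first fit were among these 23, and their direction was the same. CSF2, CSF3 and TNFAIP6 were the genes that passed the fold change of 1 as well in that fit, each lower (3.09% of all tested genes did, 1% lower). NC libraries 1 and 2 and the 3 libraries labelled GRIK1 siRNA were also left out, 1 at a time. In each of these fits, edgeR called 0 of 46 members and 0 of all tested genes at the adjusted threshold. An unadjusted p under 0.05 was reached by 14 to 16 members, and the share of all genes at that level was not computed for these fits. The 6 genes were still lower in each of them. That outcome was fixed, because for these genes each NC library lay above each labelled knockdown library. The same holds for their direction without NC library 3.

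Over the list as a whole the shift was small. The median log2 fold change of the 46 genes was −0.06 with all 6 libraries, with 17 above and 29 below 0, beside −0.02 over all tested genes. Without NC library 3 it was −0.11, with 18 above and 28 below, beside 0.01 over all genes. In size, the median was 0.30 for the members and 0.33 for all genes with all libraries, and 0.33 and 0.26 without NC library 3. In normalised CPM (counts scaled to a common library size by TMM), the 3 NC and 3 labelled knockdown values did not overlap for 21 of the 46 genes (45.7%), 16 lower and 5 higher, against 38.5% of all tested genes (19% lower and 19.4% higher). The other 23 genes were called in neither fit, and their log2 fold changes without NC library 3 ran from −0.97 (CCL5) to 0.60 (CCL2). The 6 genes called higher without that library were IL1RAP, IL11, IL6R, IL6ST, STAT3 and CHUK.

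**Figure D2:**
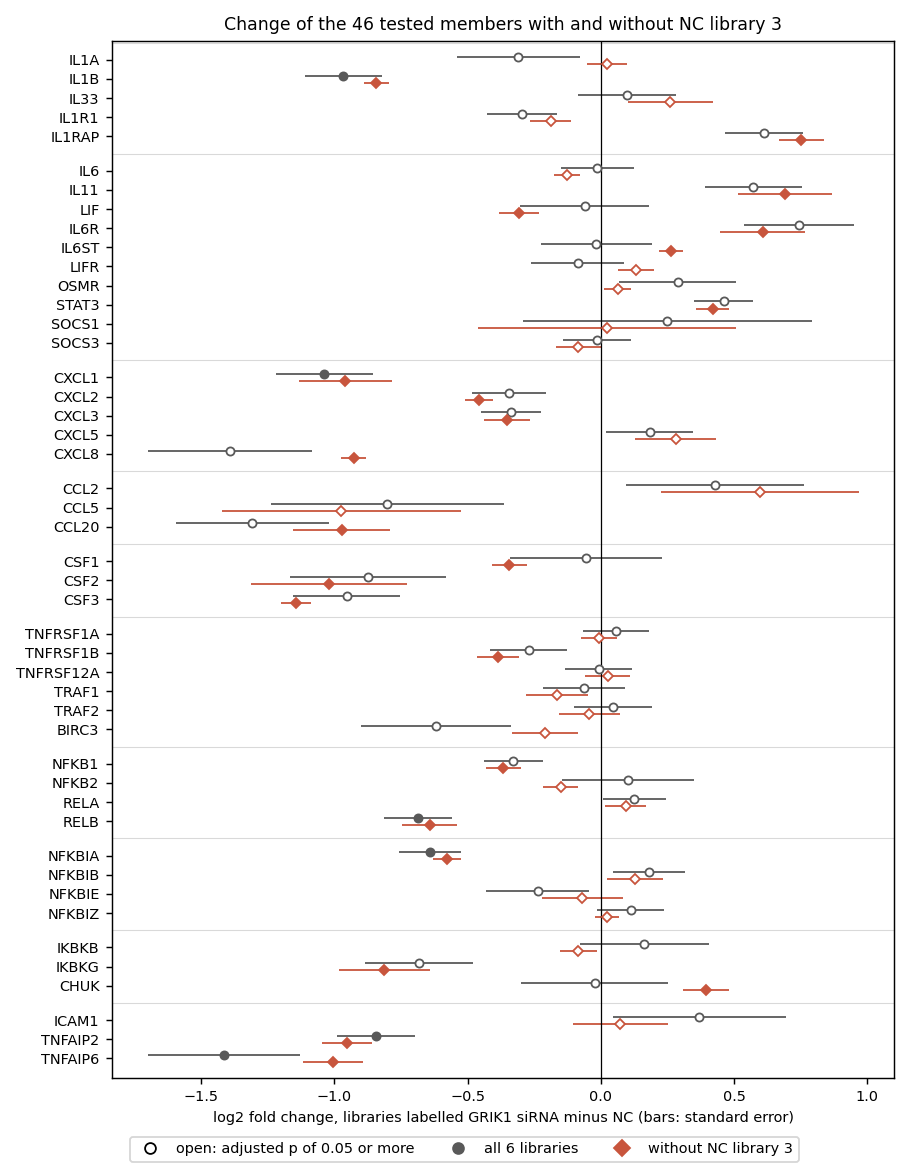
log2 fold change of each of the 46 tested genes, libraries labelled GRIK1 siRNA minus NC, from the fit with all 6 libraries (grey circles) and the fit without NC library 3 (red diamonds), with standard errors as bars and filled symbols for an adjusted p under 0.05. IL1B, CXCL1, RELB, NFKBIA, TNFAIP2 and TNFAIP6 are filled in both fits, and IL6ST and CHUK sit near 0 in the first and above 0 in the second.

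Among the 5 tested interleukin 1 genes, IL1B was called lower in both edgeR fits, and IL1RAP was called higher without NC library 3. IL1B, the secreted inflammatory ligand (ENSG00000125538, chromosome 2 from 112829751 to 112836816), had 203, 207 and 229 FPKM in NC libraries 1, 2 and 3 and 118, 114 and 117 FPKM in the libraries labelled GRIK1 siRNA. The group means were 213 ± 14 FPKM in NC and 116 ± 1.84 FPKM in the labelled knockdown (SD, n = 3). The groups were well apart, with NC library 3 highest. IL1B fell with a log2 fold change of −0.97 (standard error 0.14, edgeR adjusted p = 0.0303), and without NC library 3 with −0.84 (standard error 0.045, edgeR adjusted p = 4.46e-10). In fold terms its level in the libraries labelled GRIK1 siRNA was 0.512 of NC, or 0.558 without that library. IL1RAP, the accessory chain that both the interleukin 1 and interleukin 33 receptors need to signal, had 2.52, 2.63 and 2.95 FPKM in NC libraries 1, 2 and 3 and 4.15, 4.69 and 4.39 FPKM in the libraries labelled GRIK1 siRNA. Here each labelled knockdown library exceeded each NC library, and the test gave a log2 fold change of 0.61 (standard error 0.15, edgeR adjusted p = 0.067) with all libraries. It rose without NC library 3, with a log2 fold change of 0.75 (standard error 0.084, edgeR adjusted p = 2.53e-06). With all 6 libraries, DESeq2 and limma called it higher (DESeq2 adjusted p = 0.0115, limma adjusted p = 0.0459). IL1A, the membrane-associated ligand next to IL1B on chromosome 2, had 20.6, 21.2 and 32.6 FPKM in NC libraries 1, 2 and 3 and 21.8, 21.6 and 21.4 FPKM in the libraries labelled GRIK1 siRNA. Only NC library 3 departed from a level that the other 5 shared, and its log2 fold changes in the fits with and without it were −0.31 and 0.02. IL1R1, the signalling receptor, and IL33, a nuclear alarmin, were called in neither fit, with log2 fold changes of −0.30 and −0.19 for IL1R1 and 0.10 and 0.26 for IL33, with and without NC library 3.

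In the interleukin 6 family, no gene passed the threshold with all 6 libraries by edgeR. At an unadjusted p under 0.05, 3 of 10 (30%) passed, against 25.1% of all tested genes. DESeq2 with all 6 libraries called IL6R (DESeq2 adjusted p = 0.0306) and STAT3 (DESeq2 adjusted p = 0.00781), both higher. Without NC library 3, edgeR called 5 of the 10 tested genes (50%, against 35.2% of all tested genes). IL6R, IL6ST, STAT3 and IL11 rose and LIF fell. IL6R, the receptor chain for interleukin 6, had 1.24, 0.99 and 0.71 FPKM in NC libraries 1, 2 and 3 and 1.45, 1.89 and 1.83 FPKM in the libraries labelled GRIK1 siRNA. The labelled knockdown libraries lay above each NC library, with NC library 3 lowest. The all-library test gave a log2 fold change of 0.74 (standard error 0.21, edgeR adjusted p = 0.0926), and without NC library 3 IL6R rose with 0.61 (standard error 0.16, edgeR adjusted p = 0.00647). STAT3, the transcription factor that the family activates, had 6.79, 6.12 and 5.2 FPKM in NC libraries 1, 2 and 3 and 8.76, 9.09 and 8.52 FPKM in the libraries labelled GRIK1 siRNA. Its groups did not overlap, again with NC library 3 lowest. STAT3 gave a log2 fold change of 0.46 (standard error 0.11, edgeR adjusted p = 0.0696) with all libraries and rose without NC library 3, with 0.42 (standard error 0.062, edgeR adjusted p = 4.87e-05). IL11, a ligand of the family, had 1.85, 1.68 and 1.95 FPKM in NC libraries 1, 2 and 3 and 2.71, 3.14 and 2.85 FPKM in the libraries labelled GRIK1 siRNA, with the groups apart. It gave a log2 fold change of 0.57 (standard error 0.18, edgeR adjusted p = 0.119) with all libraries and rose with 0.69 (standard error 0.18, edgeR adjusted p = 0.00537) without NC library 3.

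IL6ST, the signal-transducing subunit shared by the family, had 26.5, 25.9 and 37.8 FPKM in NC libraries 1, 2 and 3 and 32.1, 32 and 31.9 FPKM in the libraries labelled GRIK1 siRNA. The labelled knockdown libraries lay within a narrow band, above NC libraries 1 and 2 and below NC library 3. Its log2 fold change turned from −0.02 (adjusted p = 0.965, edgeR) to 0.26 (standard error 0.045, edgeR adjusted p = 2.08e-04) when NC library 3 was left out. LIF, a ligand that also signals through this subunit, had 14.6, 13.5 and 6.51 FPKM in NC libraries 1, 2 and 3 and 10.8, 11.9 and 11.9 FPKM in the libraries labelled GRIK1 siRNA. NC library 3 was the lowest of all, below the labelled knockdown libraries, and the other NC libraries were the highest. LIF gave a log2 fold change of −0.06 (standard error 0.24, edgeR adjusted p = 0.894) with all libraries and fell with −0.31 (standard error 0.076, edgeR adjusted p = 0.00438) without NC library 3. The ligand IL6 itself had 30.8, 31 and 21 FPKM in NC libraries 1, 2 and 3 and 28.7, 28.8 and 28.9 FPKM in the libraries labelled GRIK1 siRNA. All libraries except NC 3 were close together, and its log2 fold changes were −0.01 with all libraries and −0.13 without NC library 3 with adjusted p = 0.0567 (edgeR) in the second fit. The receptors LIFR and OSMR and the feedback inhibitors SOCS1 and SOCS3 were called in neither fit. IL6, IL6R, IL6ST, LIF and OSMR overlap other annotated genes in GENCODE 29, mostly on the opposite strand, and the strand setting of the counting is not given in the sources used here.

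The CXC chemokines that attract neutrophils were called lower for 4 of the 5 tested members without NC library 3 (80%, against 18.3% of all tested genes), and CXCL1 was called in both fits. On chromosome 4, 6 of the 7 CXC genes there lie within 359 kilobases, from 73740519 to 74099196. CXCL1 (ENSG00000163739, chromosome 4 from 73869393 to 73871308) had 6.81, 6.4 and 6.76 FPKM in NC libraries 1, 2 and 3 and 3.02, 3.37 and 3.95 FPKM in the libraries labelled GRIK1 siRNA. The group means were 6.66 ± 0.224 FPKM in NC and 3.45 ± 0.47 FPKM in the labelled knockdown (SD, n = 3). Its 3 NC values were close and each was above each labelled knockdown value. CXCL1 fell with a log2 fold change of −1.04 (standard error 0.18, edgeR adjusted p = 0.0378), and without NC library 3 with −0.96 (standard error 0.17, edgeR adjusted p = 3.55e-04). CXCL8, the interleukin 8 gene (ENSG00000169429, chromosome 4 from 73740519 to 73743716), had 535, 560.1 and 1029 FPKM in NC libraries 1, 2 and 3 and 286, 296 and 296 FPKM in the libraries labelled GRIK1 siRNA. NC library 3 was far above the other NC libraries, with a ratio of 2.13 to their mean in normalised CPM, and each NC library was above each labelled knockdown library. CXCL8 gave a log2 fold change of −1.39 (standard error 0.31, edgeR adjusted p = 0.0573) with all libraries, and without NC library 3 it fell with −0.93 (standard error 0.047, edgeR adjusted p = 2.19e-10). Its fold, labelled knockdown over NC, was 0.381 with NC library 3 and 0.526 without it. DESeq2 with all 6 libraries called CXCL8 lower (DESeq2 adjusted p = 4.45e-04), as did edgeR without a filter. By limma with all 6 libraries it did not pass (limma adjusted p = 0.0671).

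CXCL2 had 129, 141 and 92 FPKM in NC libraries 1, 2 and 3 and 100.1, 101 and 99.1 FPKM in the libraries labelled GRIK1 siRNA. In FPKM, NC library 3 lay below the labelled knockdown libraries, whereas in normalised CPM, which its TMM factor of 0.891 raises, its value was 145 CPM against 136, 138 and 136 CPM. CXCL2 gave a log2 fold change of −0.35 (standard error 0.14, edgeR adjusted p = 0.181) with all libraries and fell with −0.46 (standard error 0.052, edgeR adjusted p = 2.76e-06) without NC library 3. CXCL3 had 17.5, 16.3 and 14.5 FPKM in NC libraries 1, 2 and 3 and 13.2, 14.3 and 13.1 FPKM in the libraries labelled GRIK1 siRNA, with a narrow gap between the groups. It gave a log2 fold change of −0.34 (standard error 0.11, edgeR adjusted p = 0.13) with all libraries and fell with −0.35 (standard error 0.087, edgeR adjusted p = 0.00434) without NC library 3. CXCL1, CXCL2 and CXCL3 are close paralogs, so reads shared between them make the split of their counts uncertain. CXCL5, whose upstream match is the same 10 letters as that of CXCL1, had 3.07, 3.03 and 3.22 FPKM in NC libraries 1, 2 and 3 and 3.48, 3.77 and 4.04 FPKM in the libraries labelled GRIK1 siRNA, and its log2 fold changes of 0.18 with all libraries and 0.28 without NC library 3 were called in neither fit.

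**Figure D3:**
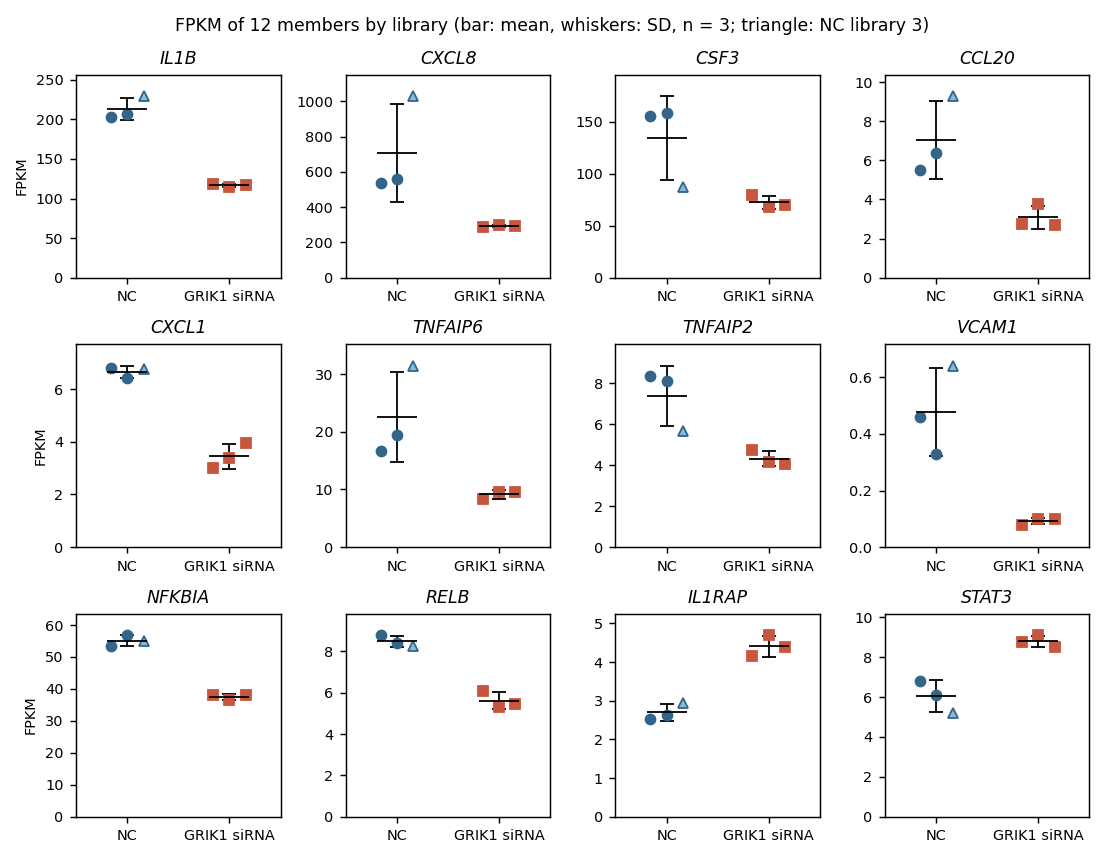
FPKM of 12 genes in each library, 1 panel a gene with its own axis from 0, with NC and the libraries labelled GRIK1 siRNA side by side, the group means as lines and the SD (n = 3) as whiskers. In IL1B, CXCL1, RELB, NFKBIA, TNFAIP2 and TNFAIP6 each NC point lies above each labelled knockdown point, and in CXCL8 NC library 3 lies far above the other NC libraries.

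Of the CC chemokines, CCL20, which attracts cells bearing the receptor CCR6, had 5.48, 6.37 and 9.27 FPKM in NC libraries 1, 2 and 3 and 2.74, 3.78 and 2.71 FPKM in the libraries labelled GRIK1 siRNA. The NC libraries were all higher, with NC library 3 highest. CCL20 gave a log2 fold change of −1.31 (standard error 0.29, edgeR adjusted p = 0.0573) with all libraries and fell with −0.97 (standard error 0.18, edgeR adjusted p = 4.97e-04) without NC library 3. DESeq2 with all 6 libraries called CCL20 lower (DESeq2 adjusted p = 0.00205), as did edgeR without a filter. By limma with all 6 libraries it did not pass (limma adjusted p = 0.0616). CCL2, a monocyte attractant, and CCL5, a T cell attractant, were near 1 FPKM and were called in neither fit, with log2 fold changes of 0.43 and 0.60 for CCL2 and −0.80 and −0.97 for CCL5, with and without NC library 3. CCL2 had 0.47, 0.88 and 0.81 FPKM in NC libraries 1, 2 and 3 and 0.96, 1.19 and 0.98 FPKM in the libraries labelled GRIK1 siRNA, so that it did not share the lower level of CCL20.

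The 3 tested colony stimulating factors were called lower without NC library 3, as were 18.3% of all tested genes. With all 6 libraries edgeR called none of them at this filter (2 of 3 at an unadjusted p under 0.05, against 25.1% of all tested genes). DESeq2 with all 6 libraries called CSF3 (DESeq2 adjusted p = 8.16e-04), as did edgeR without a filter. CSF3, the granulocyte factor, had 156, 159 and 87.3 FPKM in NC libraries 1, 2 and 3 and 79.9, 67.6 and 69.97 FPKM in the libraries labelled GRIK1 siRNA. NC library 3 stood between the other NC libraries and the labelled knockdown libraries, and the groups did not overlap. CSF3 gave a log2 fold change of −0.95 (standard error 0.20, edgeR adjusted p = 0.0509) with all libraries, and without NC library 3 it fell with −1.14 (standard error 0.057, edgeR adjusted p = 1.94e-10), to 0.453 of NC. CSF2, the granulocyte and macrophage factor, had 3.77, 5.13 and 2.81 FPKM in NC libraries 1, 2 and 3 and 2.56, 2.41 and 1.73 FPKM in the libraries labelled GRIK1 siRNA. It gave a log2 fold change of −0.87 (standard error 0.29, edgeR adjusted p = 0.132) with all libraries and fell with −1.02 (standard error 0.29, edgeR adjusted p = 0.0112) without NC library 3. CSF1, the macrophage factor, had 17, 15.7 and 6.53 FPKM in NC libraries 1, 2 and 3 and 13.7, 12.2 and 13.4 FPKM in the libraries labelled GRIK1 siRNA. Here NC library 3 lay below all other libraries, and the test gave a log2 fold change of −0.05 (standard error 0.28, edgeR adjusted p = 0.919) with all libraries against −0.34 (standard error 0.066, edgeR adjusted p = 6.08e-04) without it.

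The receptors and adaptors of TNF showed little difference, and TNF itself had 6 counts in each group. TNFRSF12A, the receptor for TWEAK and the most abundant gene of this group, had 32.9, 29.8 and 29.5 FPKM in NC libraries 1, 2 and 3 and 35.8, 32.8 and 28.8 FPKM in the libraries labelled GRIK1 siRNA. Its groups overlapped, and its log2 fold changes were −0.01 with all libraries and 0.03 without NC library 3. TNFRSF1B, the second TNF receptor, had 12.8, 13.6 and 8.94 FPKM in NC libraries 1, 2 and 3 and 10.9, 10.3 and 9.7 FPKM in the libraries labelled GRIK1 siRNA, and in FPKM NC library 3 was below the other 5 libraries. TNFRSF1B gave a log2 fold change of −0.27 (standard error 0.14, edgeR adjusted p = 0.276) with all libraries and fell with −0.39 (standard error 0.079, edgeR adjusted p = 9.74e-04) without NC library 3. BIRC3, an inhibitor of apoptosis that joins TNF receptor complexes, had 1.71, 2.03 and 3.26 FPKM in NC libraries 1, 2 and 3 and 1.63, 1.61 and 1.7 FPKM in the libraries labelled GRIK1 siRNA. The higher NC mean came mostly from NC library 3, and neither fit called it (log2 fold changes −0.62 with all libraries and −0.21 without NC library 3). TNFRSF1A, TRAF1 and TRAF2 were called in neither fit.

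Among the NF-kB subunits, RELB, which pairs with the product of NFKB2 in the alternative pathway (ENSG00000104856, chromosome 19 from 45001461 to 45038192), had 8.78, 8.43 and 8.27 FPKM in NC libraries 1, 2 and 3 and 6.09, 5.29 and 5.46 FPKM in the libraries labelled GRIK1 siRNA. The group means were 8.49 ± 0.261 FPKM in NC and 5.61 ± 0.421 FPKM in the labelled knockdown (SD, n = 3). The 3 NC values were within a narrow range and all above the labelled knockdown values. RELB fell with a log2 fold change of −0.69 (standard error 0.13, edgeR adjusted p = 0.0393), and without NC library 3 with −0.64 (standard error 0.10, edgeR adjusted p = 1.16e-04). NFKB1, which encodes the precursor of a DNA-binding subunit, had 4.6, 4.42 and 3.66 FPKM in NC libraries 1, 2 and 3 and 3.72, 3.45 and 3.52 FPKM in the libraries labelled GRIK1 siRNA. In FPKM, NC library 3 lay among the labelled knockdown values, while in normalised CPM it was 64.7 against at most 56.7. NFKB1 gave a log2 fold change of −0.33 (standard error 0.11, edgeR adjusted p = 0.131) with all libraries and fell with −0.37 (standard error 0.065, edgeR adjusted p = 2.80e-04) without NC library 3. NFKB2, the most abundant subunit gene, had 16.9, 15.6 and 7.42 FPKM in NC libraries 1, 2 and 3 and 16, 14.6 and 14.1 FPKM in the libraries labelled GRIK1 siRNA. NC library 3 was far below the other 5 libraries, with a ratio of 0.52 to the mean of NC libraries 1 and 2, and the log2 fold changes of 0.10 with all libraries and −0.15 without NC library 3 were not called. RELA, the main transactivating subunit, had 9.77, 9.88 and 8.09 FPKM in NC libraries 1, 2 and 3 and 11.7, 10.5 and 9.86 FPKM in the libraries labelled GRIK1 siRNA and was called in neither fit, with log2 fold changes of 0.12 with all libraries and 0.09 without NC library 3.

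NFKBIA, the inhibitor IkB alpha that NF-kB itself induces (ENSG00000100906, chromosome 14 from 35401079 to 35404749), had 53.5, 56.8 and 55 FPKM in NC libraries 1, 2 and 3 and 38.1, 36.5 and 38.1 FPKM in the libraries labelled GRIK1 siRNA. The group means were 55.1 ± 1.64 FPKM in NC and 37.6 ± 0.921 FPKM in the labelled knockdown (SD, n = 3). The groups were clearly apart. In FPKM, NC library 3 was among the other NC values, while in normalised CPM it was the highest, with 210 against 180 and 192 in NC libraries 1 and 2. NFKBIA fell with a log2 fold change of −0.64 (standard error 0.12, edgeR adjusted p = 0.0387), and without NC library 3 with −0.58 (standard error 0.051, edgeR adjusted p = 1.60e-07). The fold was 0.641 with all libraries and 0.670 without that library. The other inhibitors NFKBIB, NFKBIE and NFKBIZ were called in neither fit. NFKBIZ, a nuclear member of the family, had 32.9, 33.8 and 24 FPKM in NC libraries 1, 2 and 3 and 34.6, 34.7 and 34.1 FPKM in the libraries labelled GRIK1 siRNA, so that apart from NC library 3 its level hardly varied.

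The genes of the IKK complex did not move together. IKBKG, its regulatory subunit, had 1.94, 1.51 and 1.13 FPKM in NC libraries 1, 2 and 3 and 1.07, 0.98 and 0.95 FPKM in the libraries labelled GRIK1 siRNA. It gave a log2 fold change of −0.68 (standard error 0.20, edgeR adjusted p = 0.104) with all libraries and fell with −0.81 (standard error 0.17, edgeR adjusted p = 0.0012) without NC library 3. IKBKG has a near-identical pseudogene copy, so its counts are uncertain. CHUK, a kinase subunit, had 5.01, 4.68 and 8.54 FPKM in NC libraries 1, 2 and 3 and 6.27, 7.02 and 6.14 FPKM in the libraries labelled GRIK1 siRNA. NC library 3 was the highest and the other NC libraries the lowest, and the log2 fold change turned from −0.02 (adjusted p = 0.963, edgeR) to 0.39 (standard error 0.086, edgeR adjusted p = 0.00173) when it was left out. CHUK shares bases with ERLIN1 on the same strand. IKBKB, the other kinase subunit, had 7.56, 6.56 and 3.29 FPKM in NC libraries 1, 2 and 3 and 6.99, 6.96 and 6.39 FPKM in the libraries labelled GRIK1 siRNA, with NC library 3 below all others, and its log2 fold changes of 0.16 with all libraries and −0.08 without NC library 3 were not called.

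The TNF-induced genes TNFAIP2 and TNFAIP6 fell in both edgeR fits. By limma with all 6 libraries they did not pass, with log2 fold changes of −0.64 (limma adjusted p = 0.0812) for TNFAIP2 and −1.17 (limma adjusted p = 0.0564) for TNFAIP6. TNFAIP6, which encodes a secreted hyaluronan-binding protein (ENSG00000123610, chromosome 2 from 151357592 to 151380046), had 16.7, 19.4 and 31.4 FPKM in NC libraries 1, 2 and 3 and 8.29, 9.65 and 9.5 FPKM in the libraries labelled GRIK1 siRNA. The group means were 22.5 ± 7.83 FPKM in NC and 9.15 ± 0.746 FPKM in the labelled knockdown (SD, n = 3). Each NC value was higher, with NC library 3 highest. TNFAIP6 fell with a log2 fold change of −1.41 (standard error 0.29, edgeR adjusted p = 0.0476), and without NC library 3 with −1.01 (standard error 0.11, edgeR adjusted p = 2.17e-06), so that its fold moved from 0.375 to 0.498. TNFAIP2 (ENSG00000185215, chromosome 14 from 103121476 to 103137439) had 8.35, 8.09 and 5.67 FPKM in NC libraries 1, 2 and 3 and 4.76, 4.18 and 4.04 FPKM in the libraries labelled GRIK1 siRNA. The group means were 7.37 ± 1.48 FPKM in NC and 4.33 ± 0.382 FPKM in the labelled knockdown (SD, n = 3). Its NC library 3 was the lowest of the NC values but above each labelled knockdown value. TNFAIP2 fell with a log2 fold change of −0.84 (standard error 0.15, edgeR adjusted p = 0.0378), and without NC library 3 with −0.95 (standard error 0.093, edgeR adjusted p = 5.42e-07). TNFAIP6 overlaps annotated small RNA genes, and TNFAIP2 overlaps the noncoding gene LINC00677 on the opposite strand. ICAM1, an adhesion molecule for leukocytes, had 2.4, 2.14 and 0.89 FPKM in NC libraries 1, 2 and 3 and 2.08, 2.21 and 2.99 FPKM in the libraries labelled GRIK1 siRNA and was called in neither fit.

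VCAM1, an adhesion molecule whose name was taken up after its values were seen, was below the level for testing. Its counts were 31, 22 and 54 in the NC libraries, while the 3 labelled knockdown libraries held 6, 8 and 8. When all genes with counts were tested, its log2 fold change was −2.45 (standard error 0.42, edgeR adjusted p = 0.00105). That fit called 10 of 58 members and 1403 of all genes, and the share of all genes was not computed. Of the other 13 genes below the level, 0 were called in that fit, and 6 had at most 3 counts in each library: IL1RL1, CXCL6, CXCL10, CXCL12, CXCR4 and CCL7. CXCL10 and CCL7 had 0 counts in all 6 libraries, which allows up to 3 counts in each. Counts summed over the group were 20 in NC and 40 in the libraries labelled GRIK1 siRNA for CXCL14, 3 and 12 for CXCL16, 31 and 19 for the atypical receptor ACKR3, 5 and 18 for IL32, 42 and 41 for TNFRSF11B, and 255 and 219 for REL.

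NC library 3 did not lie on one side of the changes. Among the 17 genes that fell without it, NC library 3 was above the mean of NC libraries 1 and 2 in 7 and below it in 10, and among the 6 that rose it was above in 4 and below in 2. CXCL8, TNFAIP6 and CCL20 had ratios of 2.13, 1.95 and 1.73, on the side away from the labelled knockdown libraries. CSF3, CSF1 and LIF lay on the other side, with a ratio of 0.63 for CSF3. The sizes of the log2 fold changes follow from these positions and are no separate result. Those of CXCL8, TNFAIP6 and CCL20 were larger with NC library 3 than without it, and those of CSF3, CSF1 and LIF were smaller.

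**Figure D4:**
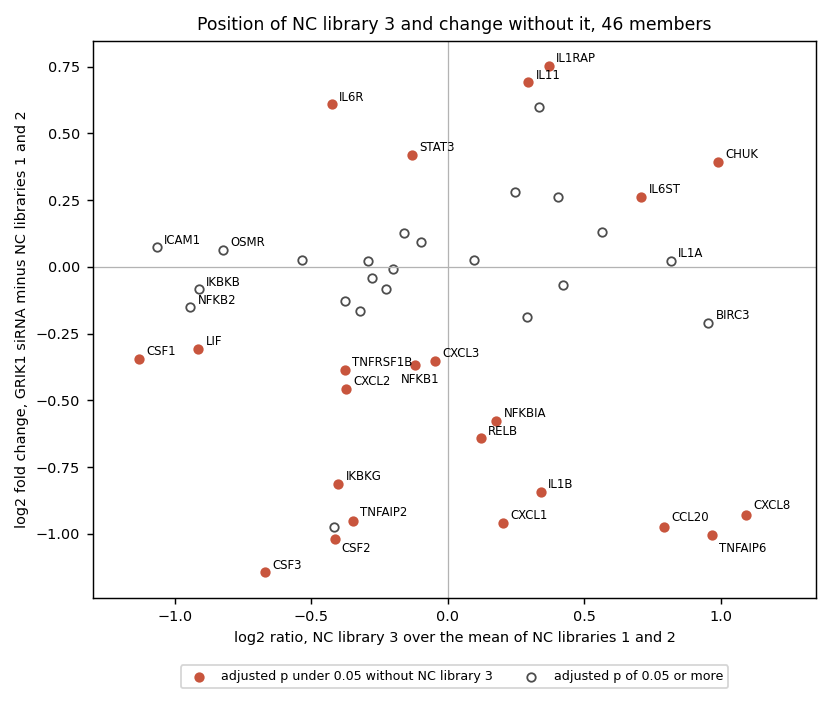
log2 ratio of NC library 3 to the mean of NC libraries 1 and 2 (horizontal) against the log2 fold change of the libraries labelled GRIK1 siRNA over NC libraries 1 and 2 (vertical) for the 46 tested genes, filled where the adjusted p was under 0.05 without NC library 3. Both axes share NC libraries 1 and 2, and genes that fell lie on both sides of the vertical line, 7 to the right and 10 to the left.

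Other genes of the pathway, from lists of 53 genes of which 48 were tested, gave 1 call (2.08%) with all 6 libraries and 19 calls (39.6%) without NC library 3, against 3.09% and 35.2% of all tested genes. The call in both fits was SOD2, the mitochondrial superoxide dismutase and an NF-kB target, with a log2 fold change of −1.18 (standard error 0.23, edgeR adjusted p = 0.0444), and without NC library 3 with −0.89 (standard error 0.045, edgeR adjusted p = 2.06e-10). SOD2 overlaps several annotated genes. Of the 14 tested feedback inhibitors and further targets, 8 were called without NC library 3 (57.1%), 6 lower and 2 higher. TNFAIP3, the deubiquitinase that ends NF-kB signalling, was lower without NC library 3 with a log2 fold change of −0.91 (standard error 0.051, edgeR adjusted p = 6.93e-10), and it gave a log2 fold change of −0.71 (standard error 0.20, edgeR adjusted p = 0.0967) with all libraries. PLAU, the urokinase gene, was lower without that library with a log2 fold change of −0.70 (standard error 0.048, edgeR adjusted p = 8.37e-09), and it had −0.47 (edgeR adjusted p = 0.243) with all libraries. ZC3H12A, which encodes an RNase for cytokine transcripts, was lower with −0.60 (standard error 0.065, edgeR adjusted p = 1.55e-06) and had −0.44 (edgeR adjusted p = 0.178) with all libraries. BCL3, a nuclear IkB protein, was higher with 0.45 (standard error 0.090, edgeR adjusted p = 8.63e-04) and had 0.67 (edgeR adjusted p = 0.133) with all libraries.

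Of 23 tested genes that lead from the interleukin 1 and TNF receptors to IKK, 0 were called with all 6 libraries by edgeR (7, or 30.4%, at an unadjusted p under 0.05, against 25.1% of all tested genes). Without NC library 3, 7 were called (30.4%, against 35.2% of all tested genes), 5 lower and 2 higher. IRAK2 and IRAK1, kinases of the interleukin 1 receptor complex, were lower in that fit with log2 fold changes of −0.51 (edgeR adjusted p = 1.01e-04) and −0.29 (edgeR adjusted p = 2.01e-04), and had −0.53 (edgeR adjusted p = 0.0503) and −0.54 (edgeR adjusted p = 0.149) with all libraries. The adaptors TANK and TRADD had log2 fold changes of −0.23 (edgeR adjusted p = 0.0134) and −0.41 (edgeR adjusted p = 0.0256) without NC library 3, and −0.33 (edgeR adjusted p = 0.172) and −0.55 (edgeR adjusted p = 0.144) with it. MAP3K14, the kinase of the alternative pathway, was higher with a log2 fold change of 0.45 (edgeR adjusted p = 0.0174) without NC library 3, and 0.65 (edgeR adjusted p = 0.138) with it. Of 11 tested genes of JAK-STAT signalling other than STAT3, 0 were called with all 6 libraries by edgeR (3, or 27.3%, at an unadjusted p under 0.05). Without NC library 3, 4 were called (36.4%), close to the share of all tested genes. PTPN11, SOCS5 and STAT5B were lower, with log2 fold changes of −0.26 (edgeR adjusted p = 2.36e-04), −0.48 (edgeR adjusted p = 3.62e-04) and −0.43 (edgeR adjusted p = 0.00141), and PIAS1 was higher with 0.22 (edgeR adjusted p = 0.0222). With all 6 libraries these genes had −0.52 (edgeR adjusted p = 0.164), −0.83 (edgeR adjusted p = 0.106), −0.40 (edgeR adjusted p = 0.104) and 0.04 (edgeR adjusted p = 0.893). The called genes of these signalling lists went in both directions, each by a log2 fold change under 1 in size.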

How the data were processed

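The 6 RNA libraries of U87-MG (3 NC and 3 labelled GRIK1 siRNA) were grouped by label alone. The authors deposited, for each gene, whole-number counts without normalization and an FPKM that the authors derived from count, library total and exonic size (checked on the table, 100% of values). The submitters' processing notes name cutadapt 1.9.1, HISAT2, HTSeq and GRCh38. The annotation release and strand setting are not given in the sources used here. The table's 0 unassigned columns and 0 rows without a gene needed no exclusion.

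Counts of the 15870 genes at a mean FPKM of 0.5 or more were fitted in edgeR 4.0.16 (R 4.3.3; quasi-likelihood test) with TMM factors, no covariate, and Benjamini-Hochberg adjustment over all tested genes. A call was an adjusted p under 0.05, and a second rule also asked for an absolute log2 fold change over 1. The standard error was the log2 fold change divided by the square root of F. Alternatives were DESeq2 1.42.0, limma 3.58.1 on log2(FPKM + 1), median-of-ratios scaling, other filters and pseudocounts, the replicate number as a block, and leaving out each library. The same-number correlations of deviations from the group means were −0.07, 0.04 and −0.04, and the numbers were not taken as pairs. With 3 libraries a group, such correlations cannot exclude a pairing. Tables were made in Python 3.11.15 (pandas 2.3.3, numpy 2.4.6). The test was tried on simulated counts.

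The 60 genes and all lists were chosen with earlier results of these data known. Values in every library are given for each member called with all 6 libraries or without NC library 3 and, in each of 10 roles, for the member with the largest mean FPKM and that with the largest change. Some others are given for comparison. Of each pathway list, at most 5 called genes are named by p. A count of 0 allows up to 3 counts (95% limit), and such limits cover counting error only. No library pair was as close as sampling noise. RefSeq sequences of GRCh38.p14 were matched by symbol.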

Additional observations from a re-analysis of the deposited data

How the results depend on the processing

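With DESeq2, 12 members were called (9 lower and 3 higher), 4 of them past the fold change, beside 1676 and 498 of all genes and 4 pathway genes. With limma, 5 members were called (CXCL1, IL1B, NFKBIA and RELB lower, IL1RAP higher), so that TNFAIP2 and TNFAIP6 lost their call. There, 0 members and 113 genes passed both rules, and the members' median log2 fold change was 0.070, with the opposite sign to the edgeR value. The FPKM used there carry no TMM factors, and the median over all genes in that fit was not computed. Without a filter, 10 members (5 past the fold change), 1403 genes (664 past it) and 3 pathway genes were called, with a members' median of −0.14. A filter of 1 FPKM gave 2 pathway calls. With the replicate number as a block, edgeR called 0 members, 0 pathway genes and 0 of all genes. There, 15 members had an unadjusted p under 0.05, and the share of all genes at that level was not computed. The smallest adjusted p of a member was 0.0946 (edgeR) and the median was −0.012. Whether equal numbers are pairs could not be decided from 3 libraries a group.

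Leaving out 1 library at a time gave 0 to 23 members called, 0 to 3 past the fold change, 0 to 5591 and 0 to 491 of all genes, 0 to 19 pathway genes and a median of −0.11 to −0.067. Each highest count was without NC library 3. Chosen after seeing the data, median-of-ratios scaling without that library gave 23 members, 5594 and 497 genes, 19 pathway genes and a median of −0.10, and DESeq2 without it 23 members, 4210 and 377 genes, 15 pathway genes and a median of −0.10.

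Without NC library 3, the log2 fold changes of IL6ST (0.26), CHUK (0.39) and MAP3K7 (0.15) turned positive. CHUK ran from −0.21 to 0.39 and MAP3K7 from −0.18 to 0.15 over the omitted libraries, and IL6ST from −0.14 to 0.26. With NC library 3 also left out, CHUK and MAP3K7 had 0.396 and 0.156 under median-of-ratios scaling, and CHUK had 0.396 with DESeq2. The cause was not tested. Of 1311 gene values under the alternatives, 112 (34 of 94 genes) changed sign with neither value called. GRIK1 went from 0.12 to 0.47 with a pseudocount of 0.1, to 0.44 in edgeR without a filter and to 0.49 there with the replicate block. GRIK1 had 8 to 20 counts a library, and members under 1 FPKM rest on few counts as well.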
